A study of Mus musculus with 12 samples.

Results

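A set of 48 genes that cells use to divide, 25 for copying DNA and 23 for mitosis, was followed in femurs of mice that lack Dlx3 in bone-forming cells. The genes were named individually by symbol, the transcripts of a symbol were summed, and all 48 were found among the 18778 gene symbols of the metaphysis table and the 19067 of the diaphysis table. The series holds 12 RNA sequencing libraries from femurs of male mice aged 5 weeks on a mixed background. The metaphysis is the flared end of the bone beside the growth plate, and the diaphysis is its shaft. The 4 groups were Dlx3Oc-cKO metaphysis, wild-type metaphysis, Dlx3Oc-cKO diaphysis and wild-type diaphysis, with 3 libraries each, called cKO and WT below. Dlx3 is a homeobox transcription factor of bone-forming cells. In mice named this way the Cre recombinase is driven by the osteocalcin (Oc) promoter, which is active in mature osteoblasts and osteocytes, so the deletion is directed at those cells and not at the whole bone. The samples were pieces of bone in which blood and marrow transcripts such as globin were abundant, and a lower level of a gene can mean fewer cells of a type or less of its RNA per cell, which cannot be told apart in bulk samples.

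A dividing cell first prepares its replication origins: Cdc6 and Cdt1 load the ring of Mcm2 to Mcm7, the helicase that unwinds DNA, and Mcm10 and the GINS complex help to switch it on. The sliding clamp Pcna, loaded by replication factor C, then holds the polymerases on the template. Transcription of many of these genes is driven in late G1 by E2F factors, whereas many mitosis genes peak later and are driven by B-Myb and Foxm1 through a promoter element called CHR, often with CCAAT boxes nearby. In young bone the cells known to divide include red cell, B cell and myeloid precursors of the marrow, growth plate chondrocytes and osteoblast precursors. Mature osteoblasts and osteocytes are largely out of the cell cycle.

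The letters of these elements were looked for in the promoters of the 48 genes, and 5 promoters are shown whose genes carry results given further on. RefSeq windows of 300 bases, 250 before and 50 after the gene start (build GRCm38.p6), were matched by symbol for 38 of the 48 genes, 19 for replication and 19 for mitosis. Those without a window were Ccne2, Ccna2, Foxm1, Gins1, Gins4, Mcm4, Pole, Tpx2, Gins2 and Aurkb. Both strands were searched for the E2F letters TTTCCCGC, TTTCGCGC, TTTGCCGC or TTTGGCGC, for the CHR letters TTTGAA or TTCGAA, and for CCAAT. The sequences below run 5′ to 3′ on the strand of the gene and end at the base before its start, and capitals mark every match on either strand. Mcm6 (chr1:128359706-128359855, minus strand) and Cdc6 (chr11:98908001-98908150, plus strand) had the smallest metaphysis p-values among replication genes with E2F letters, and Top2a (chr11:99024190-99024368, minus strand) and Aurka (chr2:172370571-172370720, minus strand) had the smallest among mitosis genes with CHR letters. The CHR letters of Aurka lay after the start, from base 33 counted from the start base as 1, so they fall outside the stretch shown, and Ube2c (chr2:164769779-164769928, plus strand), the next gene by p-value, was added for that reason.
Mcm6: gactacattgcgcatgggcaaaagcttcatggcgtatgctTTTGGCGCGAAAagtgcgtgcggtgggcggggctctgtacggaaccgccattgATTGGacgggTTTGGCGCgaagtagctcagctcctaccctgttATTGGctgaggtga
Cdc6: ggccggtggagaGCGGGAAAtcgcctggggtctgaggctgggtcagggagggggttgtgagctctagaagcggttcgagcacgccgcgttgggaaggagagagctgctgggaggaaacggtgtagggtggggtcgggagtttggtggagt
Top2a: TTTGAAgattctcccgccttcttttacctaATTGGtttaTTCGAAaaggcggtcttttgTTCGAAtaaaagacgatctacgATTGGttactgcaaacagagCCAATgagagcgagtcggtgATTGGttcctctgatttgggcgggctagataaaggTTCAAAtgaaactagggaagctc
Aurka: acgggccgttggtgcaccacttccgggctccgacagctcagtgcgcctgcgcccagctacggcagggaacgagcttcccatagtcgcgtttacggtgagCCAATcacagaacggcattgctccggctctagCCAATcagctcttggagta
Ube2c: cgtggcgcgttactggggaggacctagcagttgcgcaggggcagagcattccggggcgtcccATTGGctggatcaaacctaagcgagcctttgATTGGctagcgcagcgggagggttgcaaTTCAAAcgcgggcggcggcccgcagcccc
Mcm6 held 3 E2F matches, of which 2 overlap in the run TTTGGCGCGAAA, and 2 CCAAT boxes. Cdc6 held 1 E2F match and no other letters searched. In the stretches shown, Top2a held 4 CHR matches and 4 CCAAT boxes within 179 bases, Aurka 2 CCAAT boxes, and Ube2c 1 CHR match and 2 CCAAT boxes. The full windows of Top2a and Ube2c held further CCAAT boxes before these stretches, and that of Aurka the CHR match after the start.

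**Figure D1:**
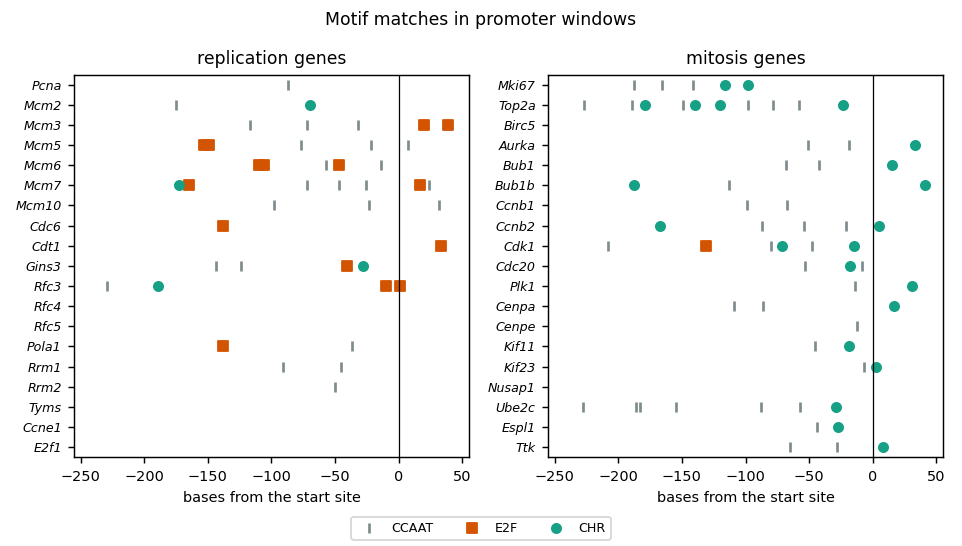
Position of each match to the E2F, CHR and CCAAT letters (x axis, bases from the gene start, on either strand) in the promoter windows of 19 replication genes (left) and 19 mitosis genes (right). E2F letters occur in 9 of 19 replication genes and 1 of 19 mitosis genes, and CHR letters in 4 of 19 and 15 of 19.

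Counted per gene, E2F letters were present in 9 of 19 replication genes (47.4%) and in 1 of 19 mitosis genes (5.26%), that of Cdk1. They were present in 4.71% of the 8947 genes tested in the metaphysis that have a window, and in 2.61% of all 27025 genes with a window. CHR letters were present in 4 of 19 replication genes (21.1%) and in 15 of 19 mitosis genes (78.9%), beside 16.4% of tested genes and 21.7% of all genes with a window. CCAAT was the most widespread, in 12 of 19 replication genes (63.2%) and 17 of 19 mitosis genes (89.5%), beside 42.8% of tested genes and 41.1% of all genes with a window. A match is a description of the letters and not a binding site shown to be in use in these samples.

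Levels are in RPKM, read numbers divided by transcript length and by library total, so they can also be compared between genes. Depth, worked out from the spacing of the lowest values, in M (mega) reads was 24.5 to 34.6 for metaphysis libraries and 18.4 to 53.65 for diaphysis libraries. Globin took 13.5% to 22.1% of the summed RPKM in metaphysis libraries and 15.1% to 32.6% in diaphysis libraries. Dlx3 matched the labels: it read 1.98, 2.80 and 3.24 RPKM in cKO against 8.37, 8.90 and 10.1 RPKM in WT metaphysis, and 0.763, 1.55 and 1.17 RPKM in cKO against 3.22, 7.64 and 13.1 RPKM in WT diaphysis. Osteoblast and osteocyte markers, which define bone, were present in every library, and none of the markers used here apart from those of skin was at 0 in any group of libraries. Whether each library stands for its own animal is not stated in the labels, so the p-values speak of scatter among libraries, which may be technical in part.

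In the metaphysis, the mean level of all 48 genes was lower in cKO than in WT, which was so for 54.7% of the 12641 genes tested. The fit with limma on log2(RPKM + 0.1) called 15 of them lower at an adjusted p under 0.05 and none higher, where 3.89% of the genes tested were called lower and 7.51% higher. Of the replication genes 8 of 25 were called (Pcna, Mcm4, Mcm6, Cdc6, Gins1, Gins4, Rrm2 and Ccne2), and of the mitosis genes 7 of 23 (Top2a, Birc5, Aurka, Bub1b, Tpx2, Nusap1 and Ube2c). All 48 log2 differences, cKO minus WT, were negative, beside 54.9% of the genes tested. Their median was -0.63 for replication genes and -0.60 for mitosis genes, beside -0.04 over all genes tested. As a share of the WT mean, cKO stood at 52.0% to 79.4% for replication genes (median 66.3%) and at 59.9% to 76.8% for mitosis genes (median 66.5%). In 46 of the 48, all except Gins2 and Ccnb1, every cKO library was below every WT library, which was so for 18.4% of all genes tested. At an unadjusted p under 0.05, 24 of 25 replication genes and 21 of 23 mitosis genes were lower, beside 15% of all genes. The number of calls depended on which libraries entered the fit, over all genes as among the 48. None of the 48 passed without cKO replicate 3, WT replicate 1, WT replicate 2 or WT replicate 3, fits in which 0.253%, 0.158%, 0.229% and 0.712% of all genes were called lower. Their medians in these 4 fits were -0.73, -0.68, -0.62 and -0.62 for replication genes and -0.69, -0.64, -0.55 and -0.58 for mitosis genes. Of the 48, 19 passed without cKO replicate 1 (5.03% of all genes lower) and 20 without cKO replicate 2 (4.09%), where both medians were -0.42. All 48 differences stayed negative in each of these fits. For the 46 genes without overlap this could not be otherwise, since leaving out a library cannot reverse their order. With no filter on low values 1 of the 48 passed (1.02% of all genes lower), without globin genes in the scaling 4 (2.37%), without a mean-variance trend 5 (2.83%) and with both regions in 1 fit 0 (0.0162%).

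**Figure D2:**
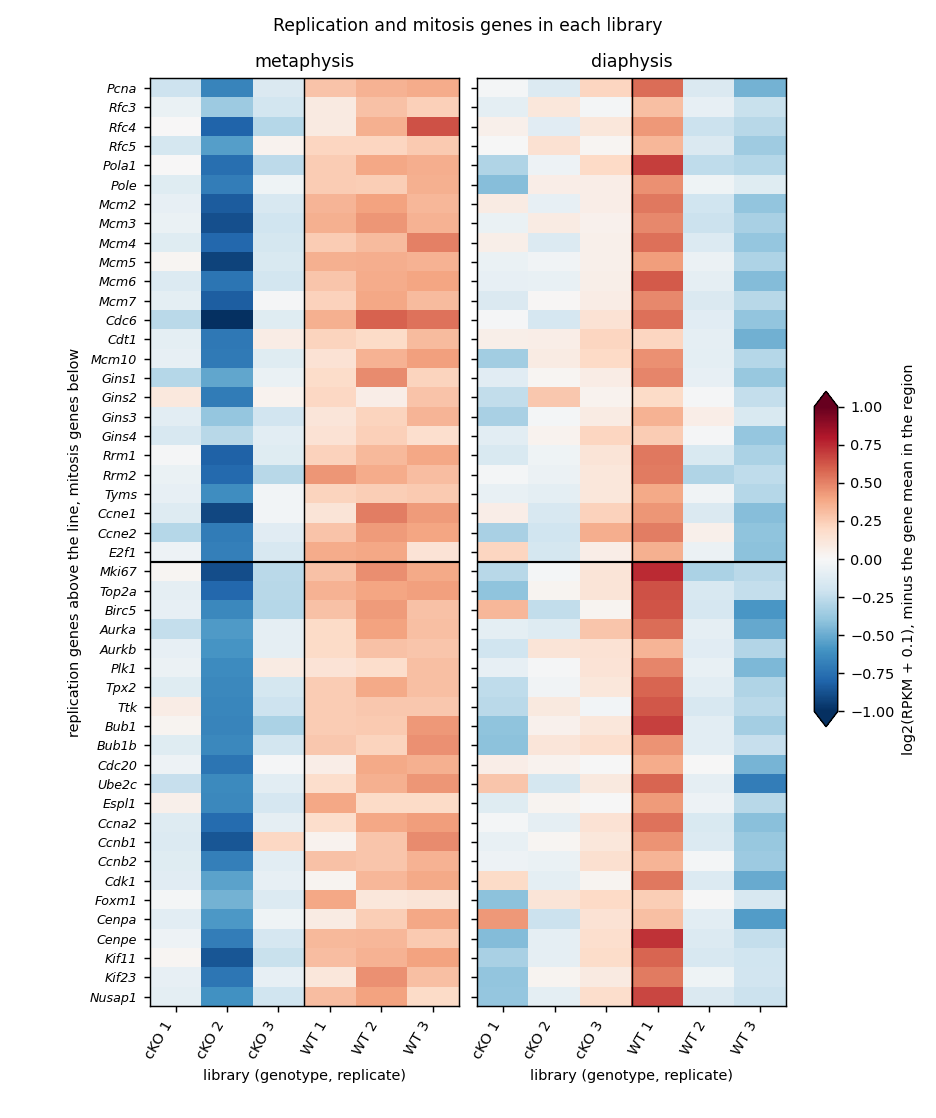
Each cell is the log2(RPKM + 0.1) of a gene in a library minus the gene's mean in that region (colour scale, log2), with replication genes above the black line and mitosis genes below. Metaphysis cKO replicate 2 is the lowest library for all 48 genes, and diaphysis WT replicate 1 is the highest for 45 of them.

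The heat map of single libraries shows the same library at an extreme for nearly all genes of a region. Metaphysis cKO replicate 2 was the lowest of the 6 libraries for all 25 replication genes and all 23 mitosis genes, and the highest library was always a WT one. Summed over the 48 genes, the level was 1515, 996 and 1478 RPKM in the cKO libraries, against 1947, 2090 and 2089 RPKM in the WT libraries, with no overlap. The cKO libraries scattered more than the WT ones. The median coefficient of variation was 23.5% in cKO and 4.99% in WT for replication genes, and 22.5% in cKO and 7.33% in WT for mitosis genes, beside 10.8% and 9.75% over all genes.

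The loading machinery and the helicase held the largest metaphysis difference. Cdc6 (chromosome 11, 98769115 to 98785254, plus strand, NCBIM37), which helps to load the helicase and whose promoter is shown above, read 10.2, 5.75 and 11.4 RPKM in cKO, against 15.8, 18.7 and 18.1 RPKM in WT. Its log2 difference was -0.99 with an SE of 0.24 (adjusted p = 0.0431), a cKO mean at 52.0% of WT, and its groups did not overlap. The 6 helicase subunits Mcm2 to Mcm7 had log2 differences within a narrow band, from -0.76 for Mcm3 to -0.62 for Mcm7, and Mcm4 and Mcm6 were the called ones. Mcm6 (chromosome 1, 130228168 to 130256233, minus strand) read 46.7, 30.9 and 45.2 RPKM in cKO, against 62.3, 66.6 and 67.7 RPKM in WT, a log2 difference of -0.70 ± 0.16 (adjusted p = 0.0362). The value after ± is the SD beside a mean RPKM and the SE beside a log2 difference, here and further on. Mcm4 read 25.7, 16.3 and 24.9 RPKM in cKO, against 33.5, 35.0 and 39.8 RPKM in WT (-0.72 ± 0.18, adjusted p = 0.0469). Neither subunit's groups overlapped, and the second cKO library was well below the other cKO libraries in both. Mcm7, the subunit with the highest level, read 59.8, 36.0 and 63.5 RPKM in cKO, against 75.2, 83.5 and 79.4 RPKM in WT, and did not pass (-0.62 ± 0.21, adjusted p = 0.0925). Cdt1, the partner of Cdc6 in loading, averaged 19.1 ± 5.09 RPKM in cKO and 26.2 ± 1.17 RPKM in WT (SD, n = 3 each) and did not pass (adjusted p = 0.140).

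Among the factors that activate the helicase, Gins1 and Gins4, subunits of the GINS complex, fell. Gins4 had the tightest values and the smallest difference of the called genes: 18.2, 16.7 and 18.9 RPKM in cKO, against 22.5, 24.1 and 22.9 RPKM in WT (-0.37 ± 0.09, adjusted p = 0.0371). Gins1 read 9.09, 7.70 and 10.6 RPKM in cKO, against 12.6, 15.4 and 12.9 RPKM in WT (-0.58 ± 0.14, adjusted p = 0.0427). The groups of both genes stood apart. Gins2, with a log2 difference of -0.37 as well, overlapped between groups at 12.7, 7.17 and 12.1 RPKM in cKO and 13.6, 12.3 and 14.3 RPKM in WT, with an SE of 0.21 (adjusted p = 0.280). Gins3 and Mcm10 had log2 differences of -0.46 and -0.60 and did not pass, with adjusted p-values of 0.0524 and 0.0704.

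The clamp Pcna had the highest level of the 48 genes in every group. Pcna (chromosome 2, 132074898 to 132079050, minus strand) read 135, 98.4 and 140.5 RPKM in metaphysis cKO, against 189.5, 197 and 200.5 RPKM in WT, and averaged 124 ± 22.8 RPKM and 196 ± 5.65 RPKM (SD, n = 3 each). It fell by 0.67 on the log2 scale with an SE of 0.14 (adjusted p = 0.0296). The clamp loader subunits Rfc3, Rfc4 and Rfc5, the polymerase alpha subunit Pola1 and the polymerase epsilon subunit Pole were between -0.72 (Rfc4) and -0.41 (Rfc3) and did not pass. Their cKO libraries were all below their WT libraries, and Rfc3 narrowly missed the threshold (adjusted p = 0.0506).

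Enzymes that supply DNA building blocks followed. Rrm2 (chromosome 12, 25393106 to 25399011, plus strand), the regulated subunit of ribonucleotide reductase, read 104, 63.5 and 90.1 RPKM in cKO, against 148, 141 and 135 RPKM in WT. It fell by 0.75 with an SE of 0.17 (adjusted p = 0.0382), and its groups stood apart. Its partner subunit Rrm1 (-0.63 ± 0.20) and thymidylate synthase Tyms (-0.49 ± 0.16) were lower in all cKO libraries but did not pass, with adjusted p-values of 0.0833 and 0.0902. Of the genes that bring cells into S phase, Ccne2, a cyclin E, fell: 6.23, 4.67 and 7.04 RPKM in cKO, against 9.34, 10.3 and 10.04 RPKM in WT (-0.74 ± 0.16, adjusted p = 0.0292). The other cyclin E, Ccne1, had the higher level and wider scatter, 20.03, 11.6 and 21.5 RPKM in cKO against 23.9, 31.3 and 29.4 RPKM in WT (-0.71 ± 0.24, adjusted p = 0.0925). E2f1, which encodes an activating E2F factor, had a log2 difference of -0.60 ± 0.17 and an adjusted p of 0.0651.

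**Figure D3:**
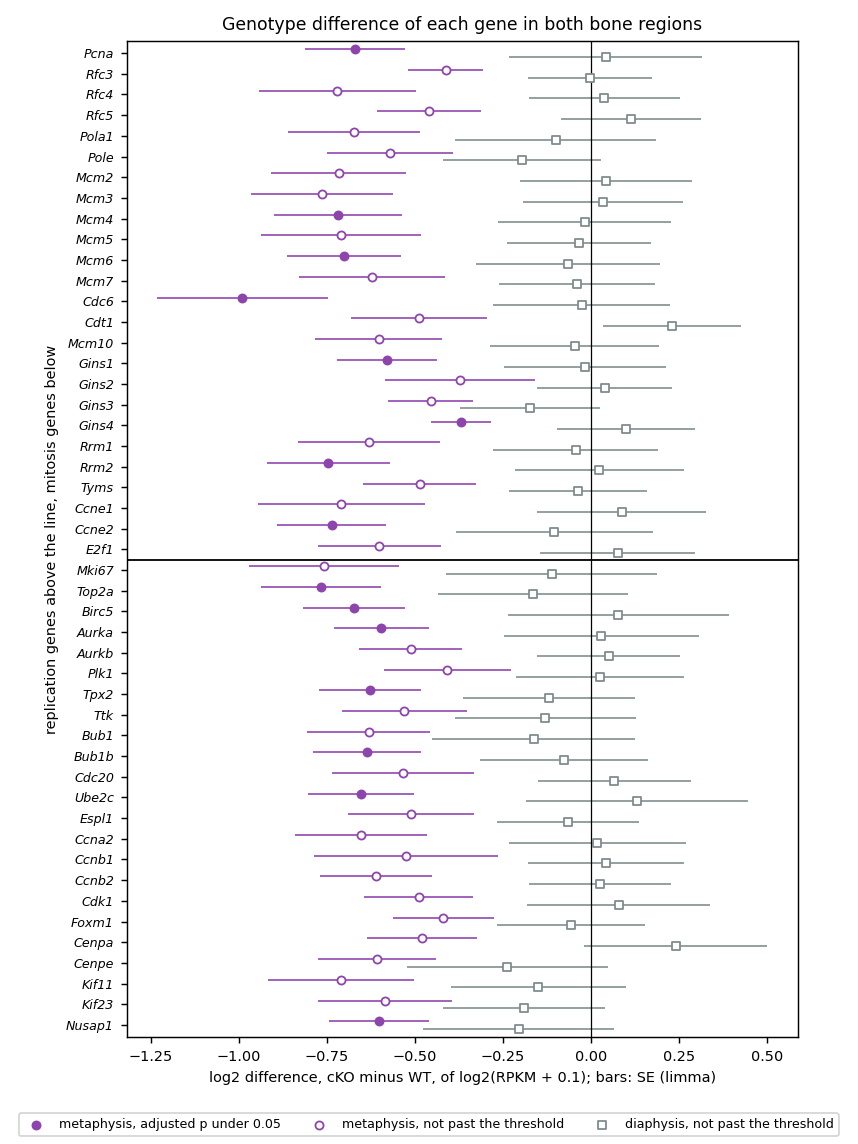
Log2 difference, cKO minus WT, of log2(RPKM + 0.1) for each gene (x axis) with its limma standard error as a bar, in the metaphysis (purple circles, filled where the adjusted p is under 0.05) and the diaphysis (grey squares). Metaphysis values run from -0.99 (Cdc6) to -0.37 (Gins4), and diaphysis values from -0.24 (Cenpe) to 0.24 (Cenpa).

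Among mitosis genes the largest metaphysis difference belonged to Top2a (chromosome 11, 98854257 to 98885503, minus strand), the topoisomerase that untangles sister DNA and the gene with 4 CHR matches above. It read 56.8, 34.9 and 49.7 RPKM in cKO, against 76.7, 79.2 and 80.0 RPKM in WT, and fell by 0.77 with an SE of 0.17 (adjusted p = 0.0334). Its 3 WT libraries were close together while the cKO libraries were spread over a wider range below them. Mki67, the proliferation antigen that coats mitotic chromosomes, had a similar difference with more scatter: 71.1, 37.9 and 58.1 RPKM in cKO, against 85.7, 97.0 and 91.3 RPKM in WT (-0.76 ± 0.21, adjusted p = 0.0612).

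Of the mitotic kinases and their partners, Birc5, Aurka and Tpx2 fell. Birc5 (survivin; chromosome 11, 117710565 to 117717069, plus strand), a subunit of the chromosomal passenger complex, read 106, 72.0 and 92.1 RPKM in cKO, against 138, 151 and 137 RPKM in WT (-0.67 ± 0.14, adjusted p = 0.0307). Aurka, the kinase of the spindle poles, read 18.1, 14.5 and 20.1 RPKM in cKO, against 24.4, 28.3 and 26.5 RPKM in WT (-0.60 ± 0.13, adjusted p = 0.0348). Tpx2, which activates Aurka on the spindle, read 21.4, 14.9 and 20.7 RPKM in cKO, against 27.9, 30.4 and 28.8 RPKM in WT (-0.63 ± 0.15, adjusted p = 0.0371). All cKO libraries were below all WT libraries in each of these genes. Aurkb, the kinase partner of Birc5, and Ttk, a spindle checkpoint kinase, had log2 differences of -0.51 and -0.53 and did not pass. Plk1, a kinase needed for mitotic entry and exit, had the smallest difference of the mitosis genes: 20.5, 13.8 and 22.6 RPKM in cKO, against 23.6, 24.1 and 26.3 RPKM in WT (-0.41 ± 0.18, adjusted p = 0.175).

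In the spindle checkpoint and anaphase group, Ube2c and Bub1b fell. Ube2c (chromosome 2, 164595398 to 164604322, plus strand), the ubiquitin-conjugating enzyme of the anaphase-promoting complex, read 116, 87.1 and 126 RPKM in cKO, against 154, 174 and 184 RPKM in WT (-0.65 ± 0.15, adjusted p = 0.0370). Bub1b, the checkpoint protein BubR1, read 17.3, 11.98 and 16.6 RPKM in cKO, against 22.8, 22.0 and 25.8 RPKM in WT (-0.64 ± 0.15, adjusted p = 0.0404). Neither gene's groups overlapped. The checkpoint kinase Bub1 (-0.63), the anaphase activator Cdc20 (-0.53) and separase Espl1 (-0.51) did not pass.

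None of the mitotic cyclins, Cdk1 or Foxm1 passed in the metaphysis, although 4 of these 5 genes had cKO libraries wholly below WT. Ccna2, cyclin A, had the highest level of them at 51.5, 33.0 and 52.8 RPKM in cKO, against 63.3, 73.6 and 75.1 RPKM in WT (-0.65 ± 0.19, adjusted p = 0.0639). Ccnb1, a cyclin B, overlapped between groups at 25.6, 15.5 and 32.4 RPKM in cKO and 28.8, 34.1 and 39.1 RPKM in WT (-0.53 ± 0.26, adjusted p = 0.221). Ccnb2, the mitotic kinase Cdk1 and the transcription factor Foxm1 had log2 differences of -0.61, -0.49 and -0.42.

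At the centromere and spindle, Nusap1, which bundles spindle microtubules, fell: 28.8, 20.3 and 26.9 RPKM in cKO, against 38.3, 40.8 and 35.2 RPKM in WT (-0.60 ± 0.14, adjusted p = 0.0389). Cenpa, the histone H3 variant of centromeres, had the highest level of this group and read 46.9, 33.9 and 48.9 RPKM in cKO, against 53.4, 59.9 and 66.0 RPKM in WT (-0.48 ± 0.16, adjusted p = 0.0893). The motor proteins Kif11, Cenpe and Kif23 had log2 differences of -0.71, -0.61 and -0.59 and did not pass, with cKO libraries wholly below WT.

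Replication and mitosis genes were then set side by side within each library. A score, the mean log2(RPKM + 0.1) of a gene group centred on the region, was -0.10, -0.71 and -0.12 for replication genes in metaphysis cKO, against 0.24, 0.34 and 0.35 in WT. The score of mitosis genes was -0.08, -0.67 and -0.13 in cKO, against 0.22, 0.32 and 0.34 in WT. The mitosis score minus the replication score in the same library was 0.027, 0.034 and -0.013 in cKO, against -0.017, -0.020 and -0.011 in WT. The ranges of this gap overlapped between genotypes, and each gap was small beside the medians of -0.63 and -0.60. No p-value is given for a score, since its genes were chosen with results of these libraries known.

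**Figure D4:**
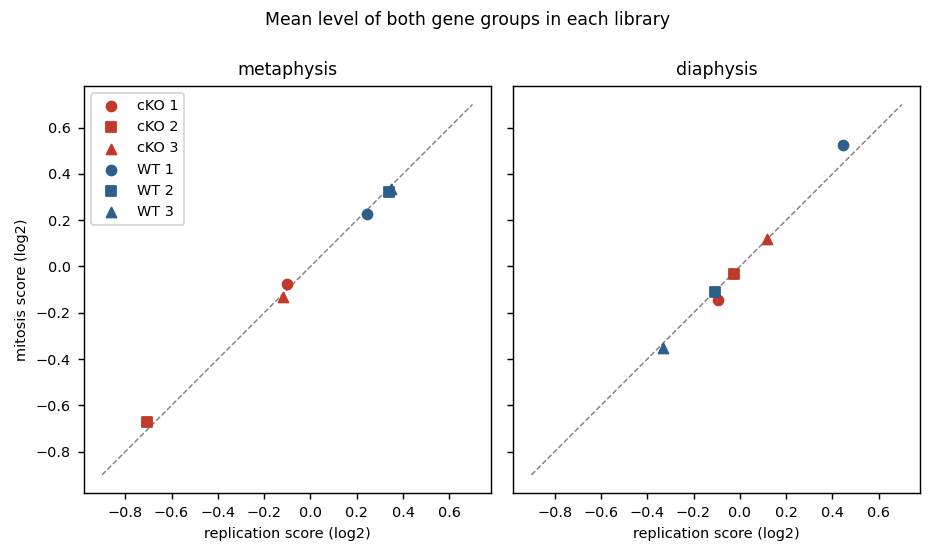
Mitosis score against replication score (mean log2 of each gene group, centred per region) for each library, cKO in red and WT in blue, with the marker shape giving the replicate and the dashed line equal scores. Libraries lie along the line, from -0.71 and -0.67 in metaphysis cKO replicate 2 to 0.44 and 0.52 in diaphysis WT replicate 1.

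In the diaphysis, none of the 48 genes passed the test. The limma fit called 0 of 12540 genes (0%), with a smallest adjusted p of 1.00, and 86 genes (0.686%) had an unadjusted p under 0.05, none of them among the 48. Of the 48 differences 26 were negative and 22 positive, with 49.3% negative over all genes and 52.1% with a cKO mean below the WT mean, and the medians were -0.02 for replication genes and -0.06 for mitosis genes. None of the 48 had all cKO libraries below all WT libraries, which was so for 0.789% of all genes. The 95% confidence intervals of single genes among the 48 lay between -0.90 and 0.86 on the log2 scale. Dlx3, the deleted gene, was not called in this fit either, at a log2 difference of -2.52 ± 0.50 (SE).

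The diaphysis extremes show the spread. Cenpe, a kinetochore motor, read 9.33, 11.9 and 14.2 RPKM in cKO, against 20.9, 11.5 and 10.7 RPKM in WT, with the lowest log2 difference of the mitosis genes, -0.24 ± 0.29 (SE). Pole read 5.89, 8.33 and 8.32 RPKM in cKO, against 11.0, 7.72 and 7.29 RPKM in WT, the lowest of the replication genes at -0.20 ± 0.23. In both the first WT library was high and the other WT libraries lay within the cKO range. At the other end Cdt1 read 32.8, 33.0 and 36.7 RPKM in cKO, against 36.6, 29.7 and 22.6 RPKM in WT (0.23 ± 0.20). Cenpa read 60.9, 38.7 and 49.9 RPKM in cKO, against 55.6, 41.8 and 30.6 RPKM in WT (0.24 ± 0.26). The groups overlapped in each of these genes. Pcna, again the highest gene, averaged 208 ± 26.4 RPKM in cKO and 210.5 ± 80.2 RPKM in WT (SD, n = 3 each).

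Here the WT libraries were the scattered ones. Diaphysis WT replicate 1 was the highest library for 23 of 25 replication genes and 22 of 23 mitosis genes, and WT replicate 3 the lowest for 19 and 13 of them. The replication score was -0.10, -0.03 and 0.12 in cKO, against 0.44, -0.11 and -0.33 in WT, so the cKO libraries lay inside the WT range. Without WT replicate 1 the medians were 0.23 for replication genes and 0.20 for mitosis genes, and 24 of the 48 differences changed sign. Without WT replicate 3 the medians were -0.19 and -0.21 and 20 changed sign. No gene was called in either case.

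Whether the cKO difference depended on the region was tested directly, as the metaphysis difference minus the diaphysis difference in 1 fit of all 12 libraries. All 48 values were negative, where 54.3% of the 12321 genes tested were. The medians were -0.63 for replication genes and -0.56 for mitosis genes. None passed (smallest adjusted p = 0.908), and 0 genes passed overall. At an unadjusted p under 0.05 there were 8 of 25 replication genes and 2 of 23 mitosis genes, all lower in the metaphysis, beside 4.02% of all genes in either direction and 3.33% in this one. The largest was Cdc6, at -0.96 with an SE of 0.38. The genes are thus not shown to differ between regions in their response. Without diaphysis WT replicate 1, 241 of the 12321 genes passed. Among the 48 it was 1, a share like that over all genes: Rrm2, at the edge of the threshold (-1.04, adjusted p = 0.0499).

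In the metaphysis the 8 genes with the highest mean RPKM came in the same order in cKO and WT, namely Pcna, Ube2c, Birc5, Rrm2, Mki67, Mcm7, Top2a and Ccna2. Gins3 was the lowest in each of the 4 groups, with a mean of 3.96 RPKM in cKO and 5.46 RPKM in WT metaphysis and 5.58 RPKM in cKO and 6.33 RPKM in WT diaphysis. Regions were normalized in separate tables, so their levels are set side by side without a test. In WT, Rrm2 stood second in the diaphysis and Ube2c second in the metaphysis.

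Other known genes of both processes were counted in the same metaphysis fit, in which 3.89% of all genes were called lower and 7.51% higher, numbers that shrink when a library is left out as described above. Of 32 other replication genes 19 were called lower and none higher. All 32 differences were negative, beside 54.9% of the genes tested, with a median log2 difference of -0.61. Cdc7, the kinase that activates the loaded helicase, read 6.99, 6.37 and 6.80 RPKM in cKO, against 11.9, 10.2 and 10.8 RPKM in WT (-0.70 ± 0.10, adjusted p = 0.0121). Gmnn, geminin, the inhibitor of Cdt1, averaged 27.1 ± 3.66 RPKM in cKO and 47.6 ± 4.51 RPKM in WT (adjusted p = 0.0151), and Rpa3, which binds single-stranded DNA, 15.6 ± 1.98 RPKM in cKO and 24.7 ± 1.804 RPKM in WT (SD, n = 3 each; adjusted p = 0.0180). Of 46 other mitosis genes 13 were called lower and none higher, and all 46 differences were negative, with a median of -0.60. Spc25 and Spc24, subunits of the Ndc80 kinetochore complex, read 17.5 ± 1.08 RPKM and 12.2 ± 1.48 RPKM in cKO, against 26.3 ± 1.31 RPKM and 20.4 ± 1.38 RPKM in WT (adjusted p = 0.0136 for Spc25 and 0.0147 for Spc24). Tacc3, a spindle protein, averaged 27.8 ± 3.52 RPKM in cKO and 43.9 ± 1.41 RPKM in WT (adjusted p = 0.0166). In the diaphysis 0 of these genes passed, and 0 had an unadjusted p under 0.05.

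Of 28 genes that control entry into the cycle, 8 were called lower in the metaphysis, beside 3.89% of all genes, with a median of -0.44. Another 3 (10.7%) were called higher, a share near the 7.51% of all genes called higher. They were Ccnd1, a cyclin D that starts the G1 programme, and the cyclin-dependent kinase inhibitors Cdkn1a (p21) and Cdkn1c (p57). Ccnd1 read 18.4, 29.1 and 22.9 RPKM in cKO, against 8.77, 8.23 and 10.4 RPKM in WT, a log2 difference of 1.33 ± 0.18 (adjusted p = 0.0117). Cdkn1a read 66.7, 85.5 and 71.8 RPKM in cKO, against 43.3, 32.8 and 43.5 RPKM in WT (0.91 ± 0.15, adjusted p = 0.0161). Both genes were highest in cKO replicate 2, the library in which the 48 division genes were lowest. Cdkn1c averaged 15.5 ± 2.66 RPKM in cKO and 9.80 ± 0.60 RPKM in WT (SD, n = 3 each, adjusted p = 0.0310). It was highest in cKO replicate 3 instead, at 12.5, 16.5 and 17.5 RPKM in the cKO libraries.

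The 8 called lower included inhibitors of the cycle as well as its drivers. E2f2, an activating E2F factor, read 36.5, 23.9 and 35.6 RPKM in cKO, against 57.6, 68.6 and 58.4 RPKM in WT (-0.96 ± 0.17, adjusted p = 0.0195), and its dimer partner Tfdp2 averaged 14.0 ± 2.38 RPKM in cKO and 23.7 ± 2.66 RPKM in WT (adjusted p = 0.0225). Ccnd3, the cyclin D prominent in blood cells, averaged 146 ± 13.4 RPKM in cKO and 210.4 ± 26.1 RPKM in WT (adjusted p = 0.0348), opposite to Ccnd1. The inhibitors Cdkn1b (p27; -0.50 ± 0.08, adjusted p = 0.0175) and Cdkn2c (p18; -0.47 ± 0.12, adjusted p = 0.0498), the pocket protein Rbl1 (-0.61), the kinase Cdk2 (-0.41) and Lin52 (-0.53), a subunit of the complex that binds CHR elements, completed the list. In the diaphysis 0 of the 28 passed.

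Markers of red cell precursors, B cells and megakaryocytes were lower in metaphysis cKO, like the division genes. T and NK cell, neutrophil and muscle lists had negative medians with few or no genes called lower. Monocyte markers were mixed, and skeletal and endothelial lists were higher. The counts that follow stand beside 3.89% of all genes called lower and 7.51% called higher. Red cell precursor markers were called lower in 7 of 14 and higher in 0, with a median of -0.85, and their score was -0.14, -0.98 and -0.17 in cKO, against 0.29, 0.56 and 0.44 in WT. The second cKO library was lowest here too. Their summed level was 641 to 1116 RPKM in cKO, against 1475 to 1776 RPKM in WT. B cell markers were called lower in 10 of 16, with a median of -0.66 and a summed level of 344 to 414 RPKM in cKO, against 532 to 655 RPKM in WT. Their score was -0.34, -0.51 and -0.12 in cKO, against 0.27, 0.19 and 0.51 in WT. Megakaryocyte markers were called lower in 2 of 8, with a median of -0.68. Their summed level was 379 to 516 RPKM in cKO, against 621 to 780 RPKM in WT. Neutrophil precursor markers were called lower in 0 of 6, with a median of -0.26. Their summed level was 592 to 909 RPKM in cKO and 666 to 998 RPKM in WT. Mature neutrophil markers were called lower in 0 of 9, with a median of -0.24. Their score overlapped between genotypes, at -0.08, 0.23 and -0.26 in cKO and 0.49, -0.17 and -0.21 in WT. The 1 called higher in that list, Mmp9, was also counted in the osteoclast list. The T and NK cell list (median -0.33) had 1 of 6 and the muscle list (median -0.59) 1 of 10 called lower. The monocyte list had 1 of 9 lower and 2 higher. All tested T and NK cell, neutrophil precursor and muscle markers had negative differences, where 54.9% of all genes did. Muscle markers set the library with the lowest division genes apart from the other cKO libraries. Their summed level was 3378, 10818 and 2745 RPKM in cKO, against 6240, 9104 and 6352 RPKM in WT. By this sum cKO replicate 2 was highest and the other cKO libraries lowest. Their score was -0.72, 0.72 and -1.13 in cKO, against 0.23, 0.78 and 0.13 in WT, so by score WT replicate 2 was highest. No skin marker reached the minimum level.

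**Figure D5:**
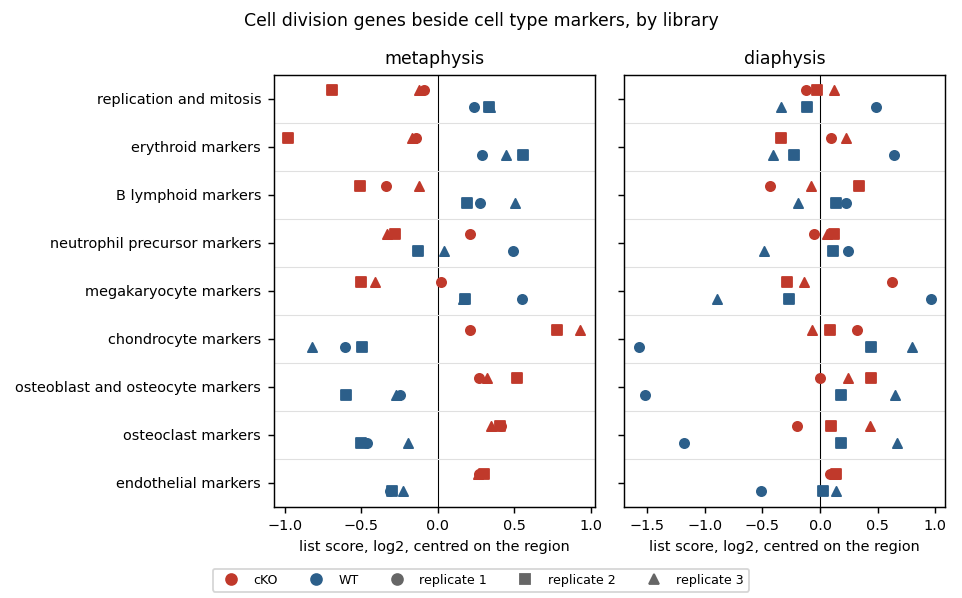
Score of the 48 division genes and of marker lists in each library (x axis, mean log2 centred on the region), with cKO in red above WT in blue and the marker shape giving the replicate. In the metaphysis cKO replicate 2 is lowest for the division genes and for red cell, B cell and megakaryocyte markers. In the diaphysis WT replicate 1 is highest for the division genes and for red cell, megakaryocyte and neutrophil precursor markers. It is lowest there for chondrocyte, osteoblast, osteoclast and endothelial markers.

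Markers of skeletal cells were higher in metaphysis cKO. Where 7.51% of all genes were called higher, chondrocyte markers were called higher in 8 of 12, with a median of 1.26 and a summed level of 1387 to 2277 RPKM in cKO, against 680.0 to 971 RPKM in WT. Osteoblast and osteocyte markers were called higher in 6 of 14, osteoclast markers in 6 of 8 and endothelial markers in 5 of 8, and 0 members of these 4 lists were called lower. In the diaphysis 0 members of any marker list were called. WT replicate 1, the library highest for the division genes there, had the highest red cell score (0.64) and megakaryocyte score (0.96). Its neutrophil precursor (0.24) and mature neutrophil (0.27) scores were also the highest. Its chondrocyte (-1.57), osteoblast (-1.52), osteoclast (-1.18) and endothelial (-0.51) scores were the lowest. The part of these differences in cell type markers, muscle included, in the division gene results was not tested.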

How the data were processed

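RNA from metaphysis and diaphysis was extracted with Trizol and made into TruSeq libraries, which do not mark the strand, per the labels' protocols. The authors deposited 1 table per region with RPKM values per transcript and library, per the file headers. Build mm9 and the tools Partek 6.6, Bowtie 0.12.7.0, TopHat 1.3.2 and CASAVA 1.8.2 are listed in the submitters' processing notes. How reads shared by transcripts or near-identical copies were counted is not given in the sources used here, and reads of a gene and an antisense partner cannot be told apart.

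Transcripts were summed per symbol, and 39 of the 48 genes had 1 transcript. The filter asked for 1 RPKM or more in at least 3 of a region's 6 libraries, which all 48 passed in both regions. Each region was fitted with limma 3.58.1 (R 4.3.3) on log2(RPKM + 0.1), a scale that understates changes of low genes, with a mean-variance trend. Tests were two-sided with Benjamini-Hochberg adjustment over all genes tested and a threshold of 0.05. The design had foreseen a count test for counts, which these values are not. Of the low values, 71.4% to 76.4% were whole read numbers to within 0.1 at the depth found, where 20% do by chance, too few to rebuild counts. Depth limits only low genes, and the lowest value of the 48 in any library was 3.04 RPKM.

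The 48 genes, their roles and all lists were chosen with earlier results of these data known. Values of each library are given for the genes called in a region, the highest gene of each role and the extremes of each gene group. From the other lists the 3 smallest metaphysis p-values are named, and all called genes for cycle control. Gene positions come from GENCODE vM1 (NCBIM37) and promoters from RefSeq. Alternatives covered the pseudocount, filters, scaling, the trend, the samples fitted, the transcripts and each library left out. Summaries and figures used Python 3.11.15, pandas 2.3.3, numpy 2.4.6 and matplotlib 3.10.9. The limma fits were tested on simulated libraries, in which each gene varied on its own and the changes were larger than those of the 48 genes.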

Additional observations from a re-analysis of the deposited data

How the results depend on the processing

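No paired analysis was possible because the labels give no replicate numbers shared between groups. All 48 metaphysis differences stayed negative under every alternative run, but most of these runs could not have changed a sign. The filters, the trend and the joint fit leave the log2 differences as they are. Leaving out a library cannot reverse the 46 genes whose groups do not overlap. The counts called in the metaphysis moved: with no filter on low values 1 replication and 0 mitosis genes (789 of all genes for metaphysis cKO against WT), scaled without globin genes 2 and 2, without a mean-variance trend 2 and 3, and with both regions in 1 fit 0 and 0 (7 of all genes). The share of all genes called lower in these fits was 1.02%, 2.37%, 2.83% and 0.0162%, beside 3.89%. Leaving out each library gave 0 to 9 replication genes, 0 to 11 mitosis genes and 163 to 1424 of all genes in the metaphysis. The medians then ranged from -0.73 to -0.42 for replication genes and from -0.70 to -0.42 for mitosis genes. A pseudocount of 1, a filter on the mean, scaling by median ratio and the highest transcript gave 17, 15, 18 and 12 of the 48 called, with 4.22%, 3.89%, 4.06% and 3.13% of all genes called lower. In the diaphysis 0 genes were called under any alternative, the medians ranged from -0.19 to 0.23 and from -0.21 to 0.20 with a library left out, and Cenpe, diaphysis, ranged from -0.41 without WT replicate 3 to 0.066, a reversal, without WT replicate 1. For the difference of the cKO effect between regions, 2 genes passed with no filter, and 0 to 241 with a library left out. The cause of these shifts was not tested, except that leaving out a library removes samples. With 3 libraries a group, differences well below the spread between libraries were not detectable.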
